A study of Mus musculus with 8 samples.

Results

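The transcriptional response of wild-type (WT) mouse macrophages to 6 hours of lipopolysaccharide (LPS) was taken from 4 of the 8 arrays of the series: 2 arrays of WT cells given LPS for 6 hours against 2 arrays of untreated WT cells. The members were chosen by the sample titles alone. The cells were bone marrow-derived macrophages (BMM), that is, marrow cells of female mice aged 6 to 8 weeks grown for 6 days with supernatant of L929 fibroblasts, cells that secrete the macrophage growth factor CSF1. The other 4 arrays held BMM lacking Cullin 3 (KO, gene Cul3), which carries substrate adaptors in ubiquitin ligases, again 2 untreated and 2 with LPS for 6 hours. These were used for the shared estimate of the spread and for a comparison of the 2 responses. WT and KO cells had the same sex, age range, culture and LPS time. The strain, the LPS dose and the way the knockout was made were not given in the sources used here. Whether the replicates are different mice or cultures is not in the labels, so that the p-values measure only how these samples vary, and that variation may be technical.

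LPS, a component of the outer membrane of Gram-negative bacteria, is handed by CD14 to the receptor complex of Toll-like receptor 4 (TLR4) and MD-2. One arm of the signal, through the adaptor MyD88, activates NF-kappaB and AP-1 and with them the genes of inflammatory cytokines. A later arm, through the adaptor TRIF, activates the factor IRF3 and the interferon-beta gene, and the secreted interferon then acts back on the macrophages through their interferon receptor to switch on the interferon-stimulated genes.

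Promoters of 9 genes described below are shown first, because the same genes carry the main results. All but Cdk1 and Hmgcs1 hold short sequences through which these arms are known to act. Those 2 hold matches to cell cycle or sterol motifs. They are the 250 bases before the transcription start, from RefSeq on the mouse build GRCm38.p6, written 5′ to 3′ on the strand of the gene. Capitals mark a match on either strand to 1 of 6 motifs: the kappa-B consensus of NF-kappaB, the core of the interferon-stimulated response element (ISRE, GAAA and again GAAA after any 2 bases), the AP-1 site (TGANTCA), the core of the sterol regulatory element (TCACNCCAC), the E2F site (TTTNNCGC) and the cell cycle homology region (TTTGAA). Matches may overlap, and in Isg15 3 ISRE cores run into each other. A match describes the letters and was not tested for binding.
Il6 (chr5:30012864-30013113, plus strand): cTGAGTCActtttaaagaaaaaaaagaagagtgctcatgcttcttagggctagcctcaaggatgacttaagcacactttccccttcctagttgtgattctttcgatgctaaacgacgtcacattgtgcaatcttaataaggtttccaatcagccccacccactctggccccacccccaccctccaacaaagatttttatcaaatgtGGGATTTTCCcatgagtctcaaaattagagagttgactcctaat
Cxcl1 (chr5:90890995-90891244, plus strand): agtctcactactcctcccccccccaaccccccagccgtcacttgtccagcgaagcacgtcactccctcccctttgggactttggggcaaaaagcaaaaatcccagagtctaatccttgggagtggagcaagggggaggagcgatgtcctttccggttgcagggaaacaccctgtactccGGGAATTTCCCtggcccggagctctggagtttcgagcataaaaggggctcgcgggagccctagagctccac
Cxcl10 (chr5:92348890-92349139, minus strand): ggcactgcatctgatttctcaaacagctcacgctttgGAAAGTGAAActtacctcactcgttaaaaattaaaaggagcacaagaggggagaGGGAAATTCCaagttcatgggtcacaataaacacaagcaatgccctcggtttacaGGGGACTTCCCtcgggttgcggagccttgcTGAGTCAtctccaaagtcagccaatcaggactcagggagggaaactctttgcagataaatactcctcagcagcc
Isg15 (chr4:156200819-156201068, minus strand): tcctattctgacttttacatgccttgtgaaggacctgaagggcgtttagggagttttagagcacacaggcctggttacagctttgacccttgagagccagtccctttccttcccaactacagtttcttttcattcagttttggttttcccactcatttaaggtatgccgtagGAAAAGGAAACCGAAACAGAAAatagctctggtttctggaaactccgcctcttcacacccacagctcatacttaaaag
Ifit1 (chr19:34640639-34640888, plus strand): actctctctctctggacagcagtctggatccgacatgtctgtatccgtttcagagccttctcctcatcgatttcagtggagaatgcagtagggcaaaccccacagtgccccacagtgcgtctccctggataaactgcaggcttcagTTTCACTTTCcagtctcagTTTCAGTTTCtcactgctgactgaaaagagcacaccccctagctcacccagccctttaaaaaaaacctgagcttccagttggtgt
Gbp2 (chr3:142620413-142620662, plus strand): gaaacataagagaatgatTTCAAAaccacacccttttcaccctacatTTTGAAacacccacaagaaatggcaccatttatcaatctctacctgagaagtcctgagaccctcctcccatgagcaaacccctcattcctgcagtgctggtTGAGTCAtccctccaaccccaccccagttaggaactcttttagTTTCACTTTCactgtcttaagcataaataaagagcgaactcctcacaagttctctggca
Nfkbia (chr12:55492648-55492897, minus strand): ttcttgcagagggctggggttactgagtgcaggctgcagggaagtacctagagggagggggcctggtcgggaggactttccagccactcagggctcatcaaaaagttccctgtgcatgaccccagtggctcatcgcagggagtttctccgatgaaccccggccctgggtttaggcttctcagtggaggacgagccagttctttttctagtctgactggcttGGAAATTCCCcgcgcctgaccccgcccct
Cdk1 (chr10:69352913-69353162, minus strand): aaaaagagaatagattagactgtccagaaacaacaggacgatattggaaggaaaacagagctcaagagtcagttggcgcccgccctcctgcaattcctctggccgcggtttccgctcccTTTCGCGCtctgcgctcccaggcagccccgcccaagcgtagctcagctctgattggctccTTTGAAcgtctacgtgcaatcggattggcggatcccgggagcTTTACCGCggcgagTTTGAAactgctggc
Hmgcs1 (chr13:119690101-119690350, plus strand): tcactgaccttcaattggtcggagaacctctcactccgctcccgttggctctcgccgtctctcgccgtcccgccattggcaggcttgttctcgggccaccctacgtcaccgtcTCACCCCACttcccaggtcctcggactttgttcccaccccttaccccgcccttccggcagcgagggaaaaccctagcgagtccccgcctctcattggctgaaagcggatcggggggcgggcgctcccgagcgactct
The kappa-B consensus stood 44 to 35 bases before the start in Il6, in the stretch 29 to 20 bases before it in Nfkbia, and at 2 places in Cxcl10. The ISRE core nearest the start ended 50 bases before it in Gbp2, 57 bases before it in Isg15 and 76 bases before it in Ifit1. Of 32851 promoters of this length, 7.25% held the kappa-B consensus and 2.98% the ISRE core. Among the promoters of the gene lists used below, the ISRE core was found in 90.0% of 10 promoters of guanylate-binding proteins and related GTPases and in 36.4% of 44 promoters of antiviral effectors. The kappa-B consensus was found in 41.2% of 17 promoters of NF-kappaB subunits and inhibitors, 45.0% of 20 of the class I pathway and 25.0% of 32 of cytokines, and likewise in 25.9% of 27 of the citric acid cycle. In the promoters of genes for mitosis, 35.6% of 45 held the cell cycle homology region, against 16.0% of all promoters. That share was not particular to mitosis. Among lists that rose, the region was in 42.86% of 7 promoters of CC chemokines and 40% of 10 of the GTPases. It was also in 29.55% of 44 promoters of antiviral effectors, but in only 3.125% of 32 of cytokines. The E2F site was in 25.0% of 40 promoters of DNA replication genes, against 4.28%. The sterol element core was in 3.57% of 28 promoters of the cholesterol list, which is 1 promoter, 10.5% of 19 of costimulatory genes and 1.05% of all promoters. The AP-1 site, held by Il6, Cxcl10 and Gbp2 above, was in 6.75% of all promoters.

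All arrays were 1-colour Agilent arrays on 1 slide and 1 scan. A gene's level below is the log2 processed signal of its brightest probe minus the 75th percentile of the array, so a level of 0 is the 75th percentile and a difference of 1 is a 2-fold change. Levels are not compared between genes, since probes differ in brightness. Replicates correlated at 0.992 to 0.995. The 75th percentile signal was 1174 and 1406 on the untreated WT arrays and 771 and 678 on those with LPS, and the spike-in RNA was also dimmer there (mean log2 signal 11.43 and 11.46 against 10.87 and 10.70). The slide had 4 columns, 2 with untreated arrays and 2 with LPS, each holding 1 WT and 1 KO array. Column and LPS cannot be told apart, since each column held only untreated or only LPS arrays. A fit with the column as a random block takes in scatter between columns, but not a shift shared by the LPS columns. It therefore cannot separate the 2. That fit, chosen after seeing the data, had a correlation of -0.353 within columns. It called 9866 genes higher and 6054 lower in WT, close to the main counts given below. With 2 arrays per group, the number of arrays limits the precision. In bulk RNA, fewer cells with a transcript and less transcript per cell cannot be told apart.

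Markers of macrophages and of other cells were looked up. Of the 27950 genes tested, 22993 were well above background on all 4 WT arrays, so such detection alone does not identify a cell type. All 12 macrophage markers, among them Adgre1 (F4/80), Csf1r, Cd68 and Mertk, were well above background on all 4 WT arrays. On all 4 arrays, 9 of 11 neutrophil markers, 5 of 10 of dendritic cells, 5 of 8 of B cells, 4 of 10 of T and NK cells, 3 of 9 of mast cells, basophils and eosinophils, 2 of 8 of red cells and megakaryocytes and 5 of 8 of fibroblasts were also well above background. Some markers were not well above background on both arrays of any group, among them the B cell gene Ebf1, the mast cell genes Cpa3 and Ms4a2, and Alas2 of red cells. These are examples. Since other markers of the same lists were above background, they do not show that such cells were absent. Cd3d, Cd8a and Klrb1c of T and NK cells were not above background on any WT array, while Lck of that list rose by 6.36 ± 0.15 (adjusted p = 1.28e-06).

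LPS changed a large share of the genes measured. A gene was called where limma's adjusted p was under 0.05, over 27950 genes. Of these, 57.5% were called, 9989 higher (35.7%) and 6091 lower (21.8%). A fit of only the 4 WT arrays called 8470 higher and 5336 lower. The balance between rises and falls depended on the scaling: the median change of all genes was 0.31 with the 75th percentile, -0.06 with quantile normalization and -0.07 with arrays centred on their medians. Quantile normalization called 6989 higher and 8558 lower, and median centring 6203 and 8345. List counts that hold under all 3 scalings are therefore given beside the main ones where they differ, and for all genes they were 5790 higher (20.7%) and 6087 lower (21.8%). The untreated and LPS values did not overlap for 21849 genes (78.2%), which is the background for each statement below that groups did not overlap. Genes were read through 39 lists of pathways and families holding 1044 genes, 1029 of them tested; the other 15, among them Ccl20, Cxcl13 and Cd163, were not above background on both arrays of any group or were not matched on the array.

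The large changes were mostly rises. By a fitted change of more than 4-fold, 2654 genes rose (9.5%) and 1516 fell (5.42%). By more than 16-fold, 834 genes rose (2.98%) and 176 fell (0.63%), and by more than 64-fold 280 genes rose (1.0%) and 12 fell (0.0429%). The 29 genes fitted as rising more than 1024-fold made up 0.104% of those tested, and no gene fell as much. A total of 452 genes were well above background on both LPS arrays and on neither untreated array, and 440 of them were called higher. In the other direction, 1043 genes were above background on both untreated arrays and neither LPS array, and 508 of these were called lower. Of all 27950 genes, 35.7% were called higher and 21.8% lower. Both sets were picked by where these arrays were bright. Calls in those directions are therefore favoured by the selection and are no separate support. The dimmest level that counted as above background was higher on the LPS arrays (-6.51 and -5.65) than on the untreated ones (-7.36 and -7.25). How far this shaped the 2 counts was not tested.

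**Figure D1:**
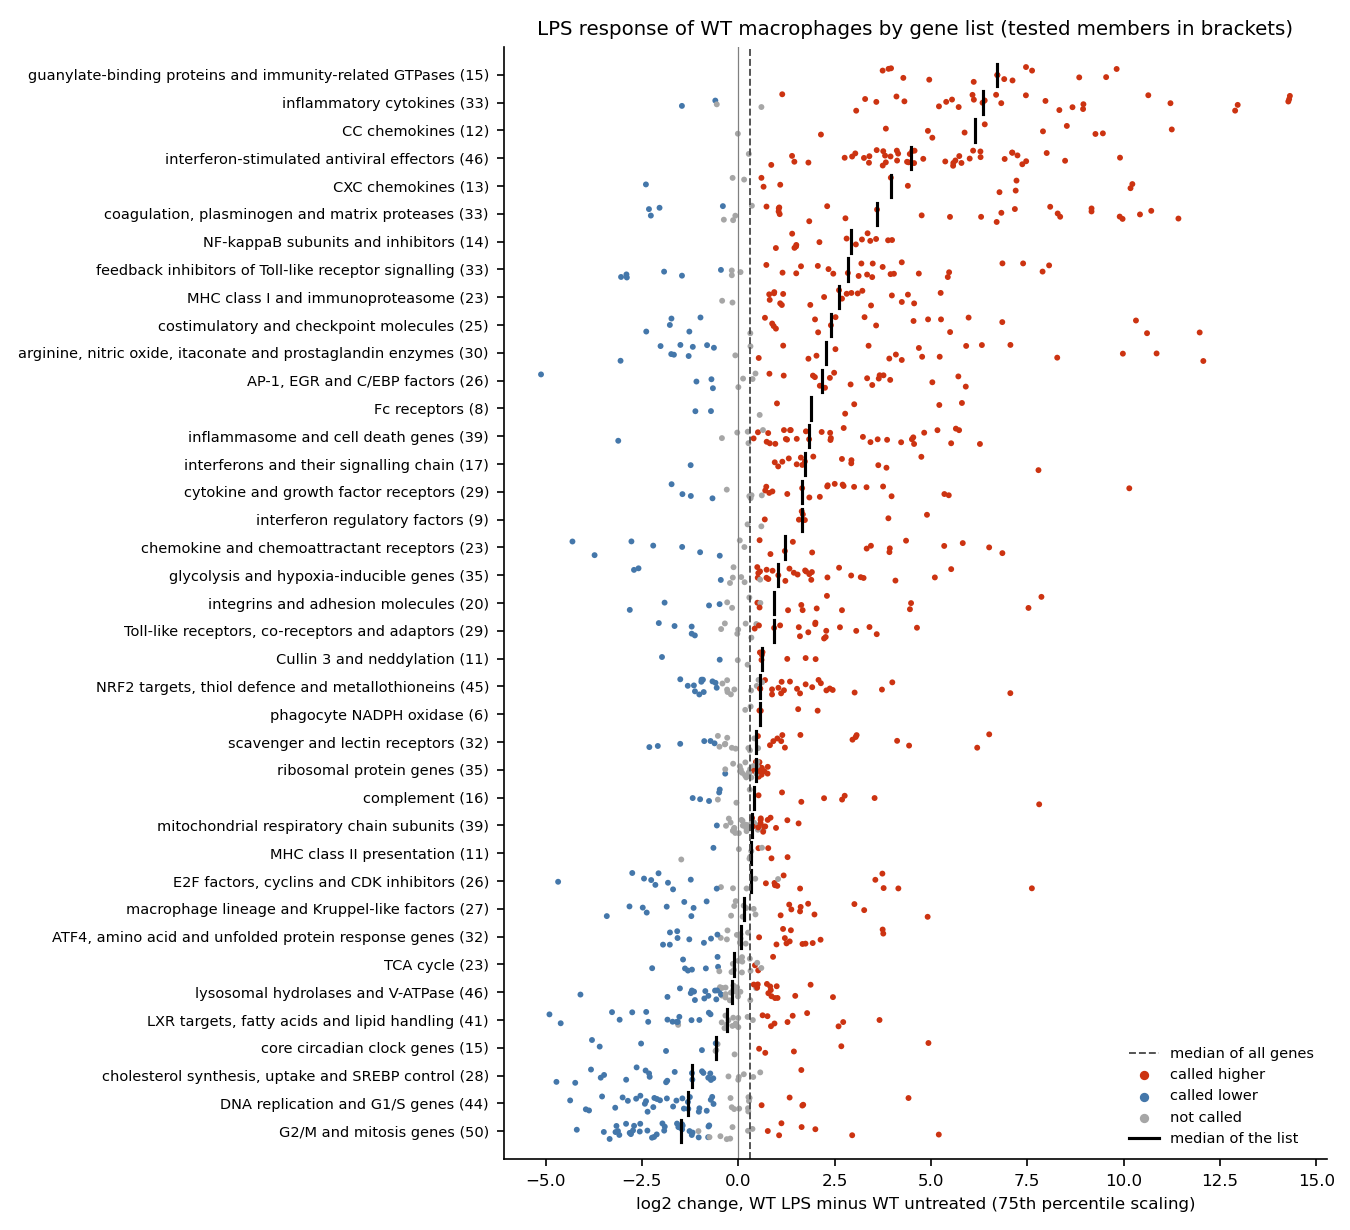
Log2 change (WT LPS minus WT untreated) of every tested member of 39 gene lists, ordered by list median; red points were called higher, blue lower and grey not called, black bars are list medians and the dashed line is the median of all genes (0.31 with this scaling, -0.06 with quantile normalization). Lists of interferon-inducible GTPases, cytokines and chemokines lie far to the right, and cell cycle and cholesterol lists to the left.

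Cytokine genes rose together. Of 33 tested, 29 rose and 2 fell, the same counts under all 3 scalings, with a median log2 change of 6.34 beside 0.31 for all genes (6.08 with the 9 members that came up from below background set at their lower bounds). Il6, the acute-phase cytokine, stood at -6.48 and -4.28 on the untreated arrays, with only 1 of them above background, and at 8.94 and 8.85 with LPS. Both LPS arrays lay far above both untreated ones, and the untreated arrays differed from each other more than those with LPS. The rise was 14.27 ± 0.78 (log2, ± SE, 2 arrays in each group, limma adjusted p = 1.78e-05).

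Tnf, the prototype cytokine of macrophage activation, was already well expressed before LPS. Its level went from 2.44 and 2.58 to 7.03 and 6.61, a rise of 4.31 ± 0.18 or 19.9-fold (adjusted p = 6.20e-06). The groups did not overlap and the spread within each was a small part of the change. Il1b, the substrate of the inflammasome, went from 0.87 and 0.69 to 9.43 and 9.47, a rise of 8.67 ± 0.13 (408-fold, adjusted p = 1.08e-06). Its relative Il1a, which signals through the same receptor, rose by 12.96 ± 0.24, from -5.92 and -5.83 to 7.29 and 6.88. All 4 untreated values of these 2 interleukin-1 genes were above background, so their folds are not lower bounds. The size for Il1a still depended on the background correction. With normexp correction (offset 50) its log2 rise was 10.95, and that of Il1b was 8.56.

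The genes of the interleukin-12 family, dimers that steer T cells, changed to different degrees. Il12b, the shared p40 subunit, rose by 12.89 ± 0.43 from -6.26 and -5.31 to 7.21 and 7.0, with 1 untreated array above background. Il12a, the p35 subunit of IL-12, and Il23a, the p19 subunit of IL-23, were not above background without LPS and rose at least 95.2-fold and at least 10.9-fold. Lower bounds of this kind set the LPS mean against the dimmest signal that counted as above background, or against the probe's own untreated signal where that was higher. They hold only for the probe, scaling and floor used. Il27 went from -1.65 and -1.52 to 4.72 and 4.27, a rise of 6.08 ± 0.18. Ebi3, its partner subunit, rose by 3.58 ± 0.12.

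Il10 and Il1rn rose as well. Il10, which restrains macrophages through STAT3, went from -1.70 and -1.53 to 5.01 and 5.14, a rise of 6.69 ± 0.15 (103-fold, adjusted p = 1.19e-06). Il1rn, the secreted antagonist of the interleukin-1 receptor, went from -2.26 and -1.64 to 6.71 and 7.28, a rise of 8.95 ± 0.31. Within each gene the replicates lay close together beside the change. The colony-stimulating factors Csf3 and Csf2 came up from below background, at least 537-fold and at least 25.2-fold, and Csf1 rose by 6.34 ± 0.20. The members that fell were Il16, a chemoattractant of CD4 cells, at -1.46, and Tnfsf13b, the B cell factor BAFF, at -0.59. Tgfb1 (-0.56, adjusted p = 0.115) and Lif (0.60, adjusted p = 0.103) were not called, but Tgfb1 was called lower with quantile normalization (-0.90) and median centring (-0.94).

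**Figure D2:**
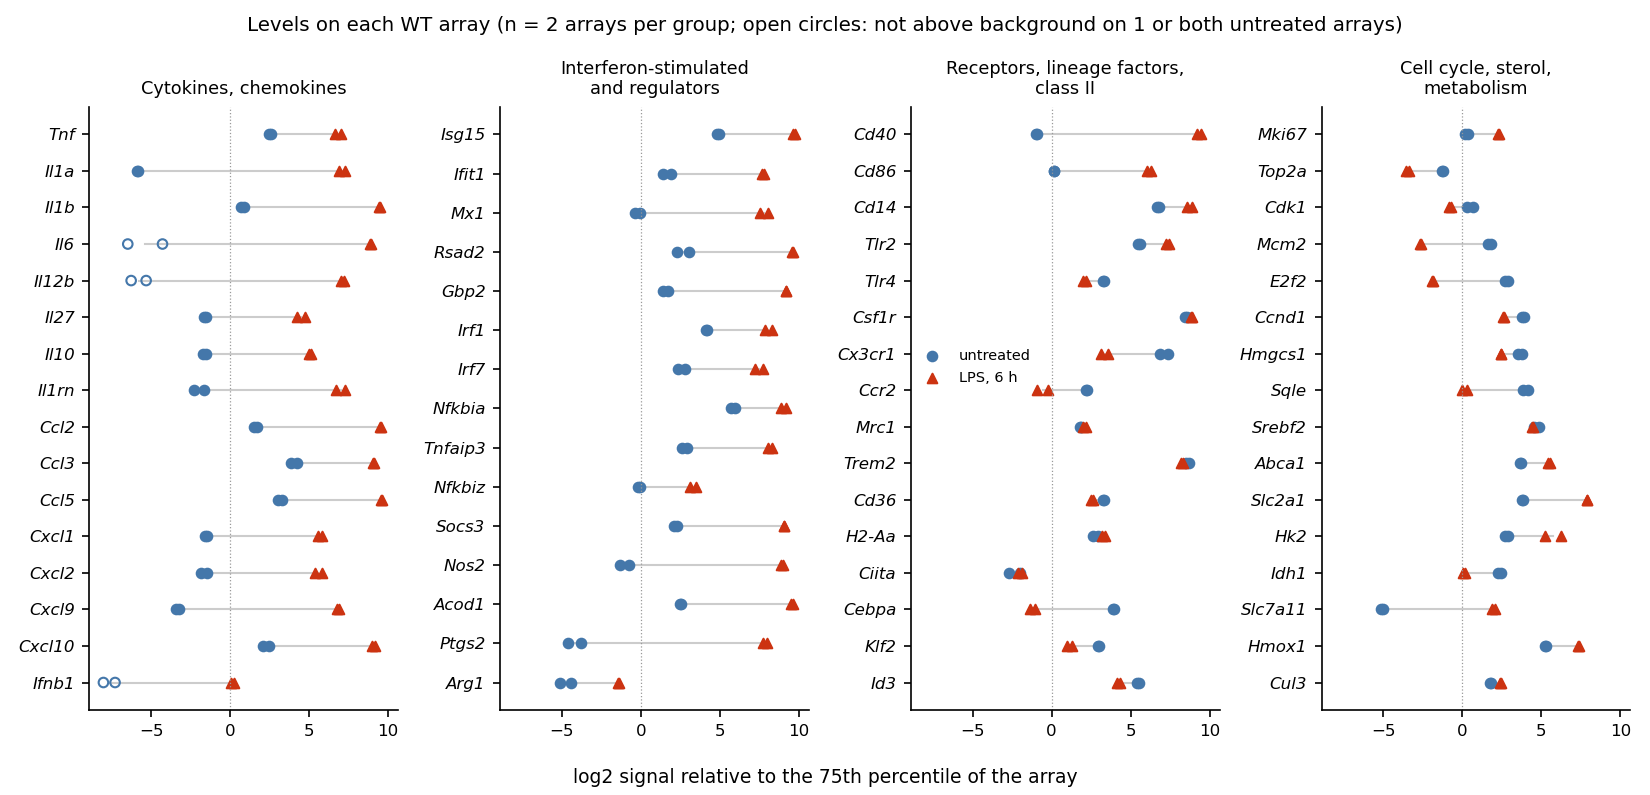
Log2 level relative to the 75th percentile on each of the 4 WT arrays (circles untreated, triangles LPS for 6 hours, n = 2 arrays per group) for 63 genes in 4 groups; open circles mark untreated arrays of genes not above background on at least 1 of them. Cytokine, interferon-stimulated and enzyme genes lie to the right with LPS, while Cx3cr1, Cebpa, Mcm2, E2f2 and Sqle lie to the left and Ciita overlaps.

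Chemokines, which recruit leukocytes, followed the cytokines. In the CC family 11 of 12 rose and 0 fell (median 6.14), and in the CXC and CX3C family 10 of 13 rose and 1 fell (median 3.96), 7 and 1 under all 3 scalings. Ccl2, which attracts monocytes, went from 1.52 and 1.72 to 9.47 and 9.58, a rise of 7.91 ± 0.22 (240.1-fold). Ccl3 went from 4.24 and 3.85 to 9.07 and 9.10 (32.8-fold), starting high and ending with the replicates nearly equal. Ccl5, which draws T cells, went from 3.31 and 3.06 to 9.56 and 9.61, a rise of 6.40 ± 0.14. For all 3 genes the lowest LPS value lay above the highest untreated value.

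The neutrophil attractants Cxcl1 and Cxcl2, ligands of CXCR2, rose by similar folds. Cxcl1 went from -1.46 and -1.56 to 5.83 and 5.56 (147-fold), and Cxcl2 from -1.81 and -1.45 to 5.79 and 5.38 (149-fold). Cxcl3 of the same group rose by 10.23 ± 0.28 and Cxcl5 by 4.40 ± 0.28. Cxcl9 and Cxcl10, ligands of CXCR3 on T cells and known interferon targets, also rose. Cxcl9 went from -3.25 and -3.42 to 6.79 and 6.90 (1159-fold). Cxcl10, whose promoter above holds both an ISRE core and kappa-B matches, went from 2.11 and 2.45 to 9.15 and 8.97 (109.8-fold). Ccl12 (11.25), Ccl7 (9.46), Ccl22 (9.27) and Ccl17 (8.53) had the largest log2 rises of the CC family. Cxcl14 was the chemokine that fell (-2.40).

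Chemoattractant receptors split. Of 23 tested, 14 rose and 7 fell, 11 and 7 under all 3 scalings. The formyl peptide receptors Fpr2 (6.85) and Fpr1 (5.83), the lymph node homing receptor Ccr7 (5.34), Ccr1 (4.35) and Gpr84 (3.93) rose. Cx3cr1, the fractalkine receptor of monocytes and tissue macrophages, went from 7.34 and 6.86 to 3.16 and 3.59, a change of -3.73 ± 0.24 (13.2-fold lower, adjusted p = 9.02e-05). Ccr2, the receptor for Ccl2, went from 2.17 and 2.26 to -0.91 and -0.20, a change of -2.77 ± 0.24 (6.83-fold lower). Neither receptor's groups overlapped, and the LPS replicates of Ccr2 were further apart than its untreated ones. Cxcr4, the receptor that retains cells in marrow, changed by -4.30, and S1pr1 by -2.21.

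Interferon genes and their signalling chain came next. Ifnb1, the interferon made directly downstream of TRIF, was not above background on either untreated array and stood at 0.06 and 0.23 with LPS, at least 175-fold higher (adjusted p = 2.88e-05). Of the 17 genes of interferons, receptors, kinases and STATs, 16 rose and 1 fell (14 and 1 under all 3 scalings), with a median of 1.73. Stat2 rose by 3.63 ± 0.22 and Irf9, its DNA-binding partner, by 1.73 ± 0.14. Jak2 rose by 4.75 ± 0.13 and Stat3, the factor downstream of IL-6 and IL-10, by 3.85 ± 0.13. The one member that fell was Ifngr1, a chain of the interferon-gamma receptor (-1.23 ± 0.17).

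Interferon regulatory factors rose in 7 of 9 cases, 6 of them under all 3 scalings. Irf1 went from 4.13 and 4.22 to 7.86 and 8.28, a rise of 3.90 ± 0.18 (14.9-fold). Irf7, the factor that widens interferon production, went from 2.36 and 2.79 to 7.21 and 7.74, a rise of 4.90 ± 0.27. Both LPS arrays lay above both untreated arrays for each of these factors. Irf3, the factor already present before a signal, changed by 0.24 and was not called (adjusted p = 0.196).

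Antiviral effector genes rose almost without exception. Of 46 tested, 45 rose and 0 fell (43 and 0 under all 3 scalings), with a median of 4.48. Isg15, a ubiquitin-like modifier, went from 4.85 and 4.92 to 9.62 and 9.75 (27.9-fold). Ifit1, which binds viral RNA lacking cap methylation, went from 1.38 and 1.89 to 7.69 and 7.77 (68.3-fold). Mx1, a dynamin-like GTPase, went from -0.35 and -0.07 to 7.53 and 8.06 (257-fold). Replicates of all 3 were closer to each other than to the other group.

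Rsad2 (viperin), which makes a chain-terminating nucleotide, went from 2.31 and 3.03 to 9.56 and 9.61 (121-fold). The RNA sensors Ifih1 (5.58) and Ddx58 (4.58), the kinase Eif2ak2 (4.15) and the deaminase Adar (3.04) rose too. Slfn4 came up from below background, at least 619-fold. Usp18, the brake on interferon receptor signalling, rose by 6.29 ± 0.15. Ifi27 was the member that was not called (0.27, adjusted p = 0.160), and with quantile normalization it was called lower (-0.57).

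The guanylate-binding proteins and immunity-related GTPases, which attack the vacuoles of intracellular pathogens, had the highest median of the 39 lists under this scaling. All 15 tested members rose, with a median of 6.72 and a range of 3.75 to 9.82. Gbp2 went from 1.42 and 1.73 to 9.20 and 9.20 (197-fold, adjusted p = 1.28e-06). Gbp5 rose by 9.82 ± 0.27, Gbp4 by 9.55 ± 0.26 and Irgm1 by 3.90 ± 0.15. Near-identical copies such as Tgtp1 and Tgtp2 (6.72 and 7.47), or Ifit3 and Ifit3b (5.37 and 5.74), may share signal on their probes, which was not tested.

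Genes of antigen presentation through class I molecules rose, while no class II gene rose under all 3 scalings. Of 23 genes of class I molecules and the immunoproteasome, 21 rose and 0 fell, 15 and 0 under all 3 scalings (median 2.61). Nlrc5, the transactivator of class I genes, rose by 5.25 ± 0.27. The peptide transporter genes Tap1 (4.40) and Tap2 (3.45) and the immunoproteasome subunits Psmb9 (3.22), Psmb10 (2.94) and Psmb8 (2.81) rose. Of 11 class II genes 4 rose (36.4%, beside 35.7% of all genes) and 1 fell (9.09%, beside 21.8%), with a median of 0.34. Under all 3 scalings these were 0 and 1. H2-Aa went from 2.64 and 2.91 to 3.20 and 3.39, a change of 0.52 ± 0.17 (adjusted p = 0.0389) that was not called with median centring (0.15) and was -0.34 in the authors' deposited log2 values. Ciita, the class II transactivator, went from -1.97 and -2.70 to -2.15 and -1.84; the groups overlapped and the gene was not called (adjusted p = 0.530), but another of its 3 probes was called higher (1.03).

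The LPS receptor complex and its relatives moved in both directions. Of 29 Toll-like receptors, co-receptors and adaptors, 17 rose and 5 fell, 15 and 5 under all 3 scalings (median 0.93). Tlr4, the receptor for LPS, went from 3.31 and 3.28 to 2.01 and 2.16, a change of -1.21 ± 0.13 (2.31-fold lower, adjusted p = 3.32e-04). Its partners rose: Cd14 went from 6.67 and 6.81 to 8.91 and 8.58 (4.01-fold) and Ly96, which encodes MD-2, changed by 2.23. Tlr2, which senses bacterial lipopeptides, went from 5.62 and 5.45 to 7.25 and 7.45 (3.53-fold). For these 4 genes the direction was the same under all 3 scalings. Tlr3, the sensor of double-stranded RNA, rose by 4.64 ± 0.16, Myd88 by 2.64 ± 0.12 and the TRIF gene Ticam1 by 1.57 ± 0.13. The kinases Irak1 (-1.65) and Irak4 (-1.13) fell, whereas Irak2 (2.28) rose.

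All 14 NF-kappaB genes rose, 13 of them under all 3 scalings, with a median of 2.93. Nfkbia, the inhibitor IkappaB-alpha and a target of NF-kappaB itself, went from 5.70 and 5.94 to 8.89 and 9.17 (9.26-fold, adjusted p = 1.04e-05). Nfkbiz, an atypical nuclear IkappaB needed for Il6 induction, went from -0.15 and -0.05 to 3.14 and 3.50 (10.7-fold). Neither gene's groups overlapped. Among the subunits, Nfkb2 rose by 3.89 ± 0.14, Rel by 3.36 ± 0.16, Nfkb1 by 3.05 ± 0.17, Relb by 2.11 ± 0.18 and Rela by 1.51 ± 0.21.

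Feedback inhibitors mostly rose with the pathway they restrain, 24 of 33 with 6 falling, 23 and 6 under all 3 scalings. Tnfaip3 (A20), a ubiquitin-editing enzyme, went from 2.90 and 2.59 to 8.03 and 8.33 (43.3-fold). Socs3, which blocks the IL-6 receptor, went from 2.13 and 2.32 to 9.09 and 9.07 (116-fold), with replicates nearly equal in both groups. Socs1 rose by 8.07 ± 0.16, the phosphatase genes Dusp2 by 7.39 ± 0.14 and Dusp1 by 4.24 ± 0.20, and Irak3, which encodes IRAK-M, by 2.84 ± 0.14. The mRNA-decay factors Zc3h12a (3.75) and Zfp36 (3.49) rose as well. In contrast, Sigirr (-2.89), Cyld (-1.92), Zfp36l2 (-2.90) and the phosphatase SHIP-1 gene Inpp5d (-3.04) fell. Another probe of Cyld had the opposite sign without being called.

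Transcription factors of the AP-1, EGR and C/EBP families had 26 tested members, of which 18 rose and 4 fell, 17 and 4 under all 3 scalings. Batf2 (5.90), Batf (5.71), Fosl1 (3.94), Cebpb (2.92) and Cebpd (2.38) rose. Fos, an early gene, was below its untreated level at 6 hours (-1.08), as were Jun (-0.70) and Myc (-0.66). Cebpa, a factor of myeloid differentiation, went from 3.95 and 3.90 to -1.04 and -1.35, a change of -5.12 ± 0.14 (34.7-fold lower, adjusted p = 1.87e-06). Its untreated replicates were nearly equal and its LPS replicates lay far below them.

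Of 27 lineage and Kruppel-like factors, 10 rose (37.0%, beside 35.7% of all genes) and 9 fell (33.3%, beside 21.8%). Klf2, known to restrain inflammatory genes, went from 2.94 and 2.98 to 0.95 and 1.27 (3.62-fold lower). Id3 went from 5.38 and 5.52 to 4.32 and 4.15 (2.32-fold lower). Spi1 (PU.1), the master factor of the lineage, rose by 1.10 ± 0.20, and Pparg (-2.82), Mef2c (-2.48) and Tfeb (-3.41) fell. Maf went from 4.30 and 4.31 to 5.49 and 5.87, a rise of 1.38 ± 0.17, but its other probe changed by -0.14 without being called. Csf1r, the receptor of the growth factor in the medium, went from 8.60 and 8.43 to 8.81 and 8.91 and was not called (adjusted p = 0.0811), while quantile normalization gave a called fall (-0.49) and its other 2 probes were called lower (-0.91 and -1.57).

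Enzymes of small mediators had some of the steepest rises. Of 30 genes of arginine, nitric oxide, itaconate and prostaglandin metabolism, 19 rose and 9 fell, 17 and 9 under all 3 scalings (median 2.28). Nos2, the inducible nitric oxide synthase, went from -0.77 and -1.34 to 8.97 and 8.88 (1010-fold). Acod1, which makes itaconate from a citric acid cycle intermediate, went from 2.53 and 2.48 to 9.48 and 9.66 (134-fold). Ptgs2, the inducible cyclooxygenase COX-2, went from -4.59 and -3.78 to 8.01 and 7.76 (4294-fold). All untreated arrays of these 3 genes were above background and none overlapped with LPS.

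Genes that feed these enzymes rose too: the arginine transporter Slc7a2 (5.91), argininosuccinate synthase Ass1 (3.92), and Gch1 (5.23), which starts the synthesis of the cofactor tetrahydrobiopterin. Spr, a later step of that synthesis, fell (-2.02 ± 0.15). Arg1, the enzyme that competes with NOS2 for arginine and is often taken as a mark of alternative activation, went from -5.12 and -4.44 to -1.36 and -1.43, a rise of 3.38 ± 0.24 (adjusted p = 5.51e-05). Hdc, the histamine-forming enzyme, rose by 10.86 ± 0.23 and Ch25h, which makes 25-hydroxycholesterol, by 8.28 ± 0.13. The constitutive cyclooxygenase Ptgs1 (-3.05) and the leukotriene genes Alox5 (-1.67), Alox5ap (-1.18) and Lta4h (-1.29) fell.

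The list of costimulatory molecules had 25 tested genes. Of these 19 rose and 5 fell, 16 and 5 under all 3 scalings. Cd40, which receives help from T cells, went from -1.01 and -0.95 to 9.20 and 9.48 (1279-fold). Cd86, a ligand of CD28, went from 0.18 and 0.17 to 6.04 and 6.26 (63.0-fold). Both had tight replicates. Cd274, which encodes PD-L1, rose by 6.85 ± 0.12. Slamf1 and Tnfsf4 came up from below background, at least 3555-fold and at least 690.1-fold. Cd80 gave opposite calls on its 2 probes, so no direction is given for it. Vsir (-1.77) and Havcr2 (-1.73), inhibitory receptors, fell.

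Receptors for the cytokines described above also changed, 20 of 29 rising and 4 falling, 16 and 4 under all 3 scalings. Il2ra rose by 10.15 ± 0.32, Fas by 5.46 ± 0.24, Il4ra by 5.35 ± 0.12 and Tnfrsf1b, a TNF receptor, by 3.33 ± 0.29. The receptors of transforming growth factor beta, Tgfbr1 (-1.73) and Tgfbr2 (-1.45), and Il6ra (-1.23) fell. Among Fc receptors, Fcgr4 (5.80), the inhibitory Fcgr2b (5.22), Fcgr1 (3.01) and Fcgr3 (2.77) rose, and the recycling receptor Fcgrt (-1.11) fell.

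Scavenger and lectin receptors were mixed, 15 of 32 rising (46.9%, beside 35.7% of all genes) and 6 falling (18.75%, beside 21.8%). Under all 3 scalings these were 11 and 6. Olr1 (6.51), Msr1 (3.05), Marco (2.96) and the mycobacterial sensor Clec4e (4.12) rose. Cd36 went from 3.25 and 3.32 to 2.64 and 2.48 (1.65-fold lower), and Scarb1 (-2.31) and Lrp1 (-2.09) fell. Mrc1, the mannose receptor, went from 1.85 and 1.80 to 1.99 and 2.19, and Trem2 from 8.68 and 8.52 to 8.19 and 8.34; neither was called (adjusted p = 0.208 and 0.116), but Trem2 was called lower with quantile normalization (-1.15) and median centring (-0.72).

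Inflammasome and cell death genes had 39 tested members, of which 33 rose and 1 fell, 25 and 1 under all 3 scalings. Casp4, the mouse caspase-11 that binds cytosolic LPS, rose by 5.17 ± 0.20, Nlrp3 by 3.86 ± 0.18, Casp1 by 3.43 ± 0.17 and the pore-former Gsdmd by 2.74 ± 0.13. Survival genes rose in parallel, among them Cflar (5.73), Bcl2a1d (4.51), Birc3 (3.24) and Ier3 (5.52), as did the necroptosis effector Mlkl (5.65). Nlrp1b was the member that fell (-3.11). Of 6 genes of the phagocyte NADPH oxidase, Cybb (2.06) and Rac2 (1.56) rose under all 3 scalings.

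Secreted and adhesive proteins were prominent. Among 33 genes of coagulation, plasminogen control and matrix breakdown, 25 rose and 4 fell, 23 and 4 under all 3 scalings (median 3.60). Tissue factor, F3, which starts coagulation, rose by 9.17 ± 0.38, and the plasminogen activator inhibitor Serpinb2 by 10.72 ± 0.28. Mmp13 (9.97), Mmp14 (5.49), the versican gene Vcan (8.35) and Timp1 (8.09) rose, and Adamts4 and Plat rose at least 910.3-fold and at least 403-fold from below background. Thrombomodulin, Thbd (-2.04), urokinase, Plau (-2.27), and Timp2 (-2.32) fell. The other probe of Timp2 changed by -0.33 without being called. Of 16 complement genes 8 rose and 5 fell (7 and 5 under all 3 scalings), with factor B, Cfb (7.81), C3 (2.76) and C2 (2.69) rising. Vcam1 (7.53) and Icam1 (4.48) rose among 20 adhesion genes, and Itga6 (-2.81) and Itgb5 (-1.91) fell.

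Cell cycle genes fell. Of 44 genes of DNA replication, 30 fell and 5 rose, with a median of -1.30. Of 50 genes of mitosis, 35 fell and 7 rose, with a median of -1.49 (-1.42 with members that went below background at their bounds). Under all 3 scalings the falls numbered 30 and 35 and the rises 4 and 5. The background for falls is 21.8% of all genes.

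Mcm2, a subunit of the replicative helicase, went from 1.81 and 1.63 to -2.67 and -2.61, a change of -4.36 ± 0.13 (20.6-fold lower, adjusted p = 2.24e-06). Replicates were close and the groups far apart. Other helicase subunits changed by -3.87 (Mcm7), -2.65 (Mcm3), -1.85 (Mcm5) and -1.41 (Mcm4), whereas Mcm6 (0.02) was not called, but was called lower with quantile normalization (-0.78). The ribonucleotide reductase subunits Rrm2 (-3.53) and Rrm1 (-1.60), the deoxyuridine hydrolase Dut (-3.19), the thymidine kinase Tk1 (-2.86) and the polymerase subunit Pole2 (-3.95) fell.

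In mitosis, Top2a, the topoisomerase that untangles chromosomes, went from -1.22 and -1.27 to -3.57 and -3.40 (4.72-fold lower). Cdk1, the mitotic kinase, went from 0.70 and 0.28 to -0.84 and -0.71 (2.40-fold lower, adjusted p = 0.00143). Another Cdk1 probe was called lower (-1.28), and a further one changed by -0.18 without being called. Ccna2 (-2.91), Ccnb1 (-2.54), Cdc20 (-2.79), Bub1 (-2.78) and Plk1 (-2.12) fell as well. Pbk, Aspm and Kif11 went below background and were at least 8.88-fold, at least 7.04-fold and at least 6.16-fold lower.

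Several genes went against the rest of their lists. Mki67, the widely used proliferation marker, went from 0.37 and 0.15 to 2.23 and 2.29, a rise of 2.00 ± 0.21 (adjusted p = 2.87e-04), and both of its probes were called higher. Tpx2, which builds the spindle, rose by 5.20 ± 0.16, Kif4 by 2.96 ± 0.22 and Tyms, the thymidylate synthase, by 4.42 ± 0.22. Their direction was the same under all 3 scalings. The other probe of Tpx2 changed by 1.30 without being called. Among regulators, E2f2 went from 2.88 and 2.71 to -1.89 and -1.86 (25.5-fold lower), Cdk2 (-2.75) and E2f1 (-2.07) fell, and the inhibitors Cdkn1a (4.15), Cdkn2b (3.77) and Cdkn2d (3.56) rose. The D-type cyclins went apart: Ccnd1 went from 3.92 and 3.75 to 2.66 and 2.55 (2.35-fold lower), whereas Ccnd2 rose by 7.62 ± 0.21 and Ccnd3 by 1.60 ± 0.18.

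**Figure D3:**
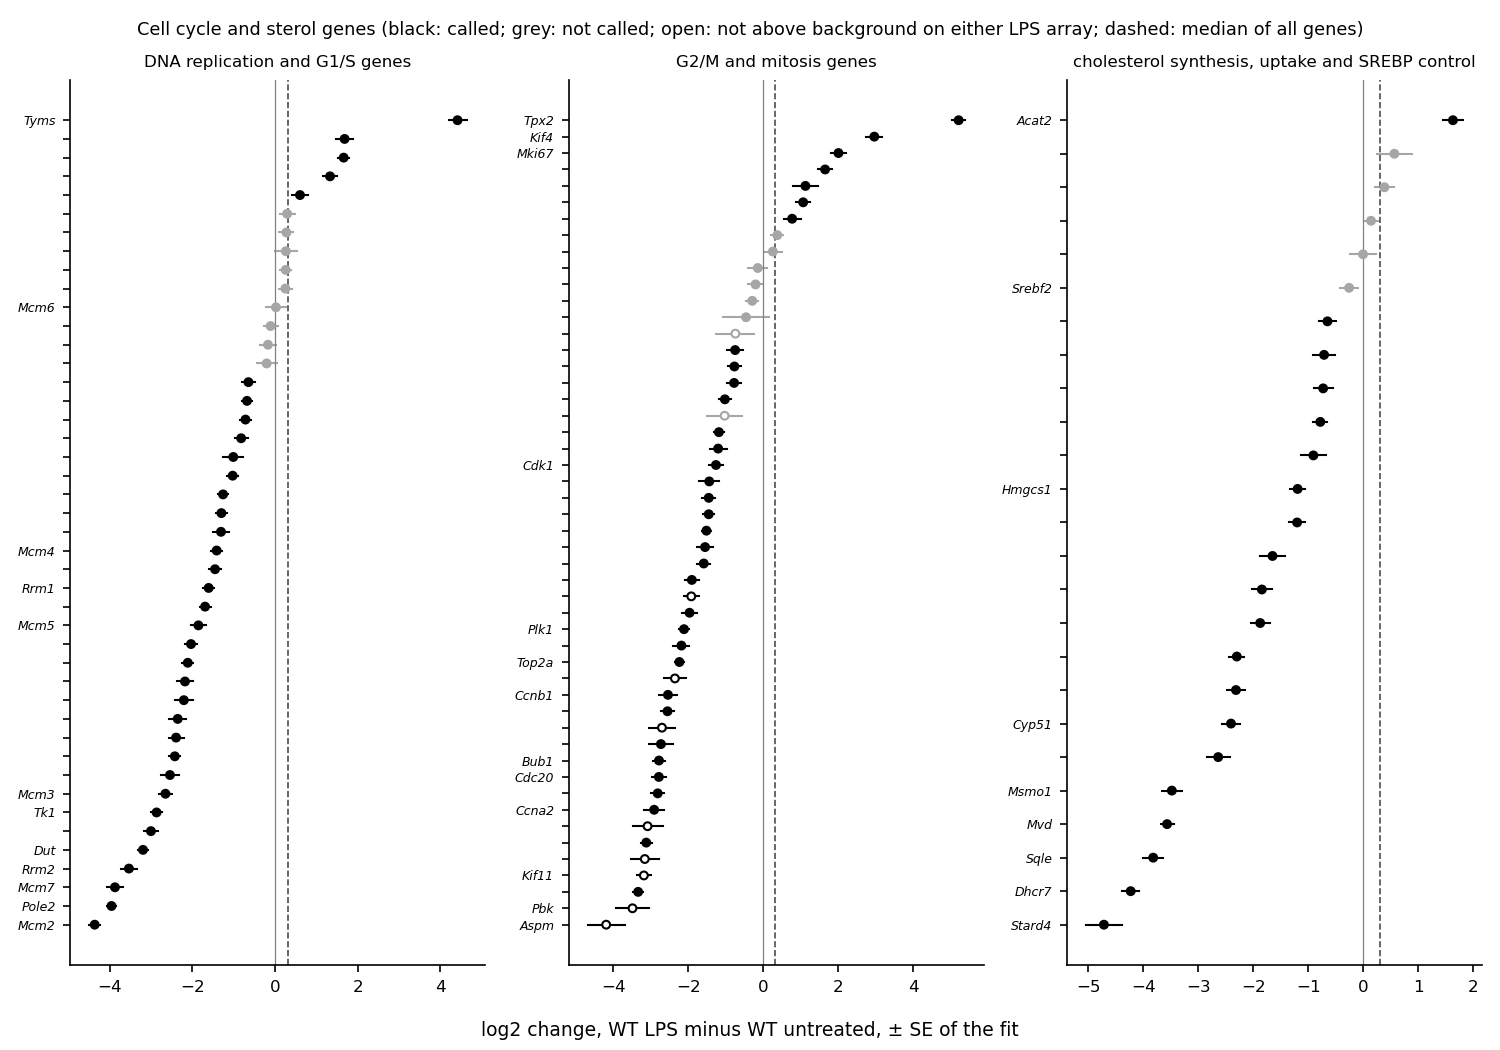
Log2 change in WT cells (LPS minus untreated) with the SE of the fit for tested genes of DNA replication, of mitosis and of cholesterol synthesis (25 of the 28 of the last list are drawn, and genes described in the text are labelled); black points were called, grey were not, open points were not above background on either LPS array and the dashed line is the median of all genes. Most points lie left of 0, with Tyms, Tpx2, Kif4, Mki67 and Acat2 to the right.

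Sterol synthesis genes fell in 21 of 28 cases and rose in 1, with a median of -1.20. Sqle, squalene epoxidase, went from 4.13 and 3.82 to -0.02 and 0.32 (14.1-fold lower, adjusted p = 3.39e-05). Hmgcs1, whose promoter above holds a sterol element core, went from 3.76 and 3.55 to 2.47 and 2.46 (2.28-fold lower). Neither gene's groups overlapped. Stard4 (-4.72), which carries sterol between membranes, and the synthesis enzymes Dhcr7 (-4.23), Mvd (-3.57), Msmo1 (-3.48) and Cyp51 (-2.40) fell. Srebf2, the master factor, was not called (-0.25, adjusted p = 0.232), but its other probe was called lower (-0.78), as was its brightest probe with quantile normalization (-0.89) and median centring (-0.63). Acat2, an early enzyme, rose (1.64 ± 0.19).

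Fatty acid genes followed in part. Fasn, fatty acid synthase, went below background and was at least 14.3-fold lower, and Fads1 (-4.61), Scd2 (-3.28), Elovl6 (-3.08) and Scd1 (-1.57) fell. Abca1, which exports cholesterol, went from 3.71 and 3.68 to 5.43 and 5.53, a rise of 1.79 ± 0.13. The lipid droplet gene Hilpda (3.67) and Acsl1 (2.72) rose. Of the 41 genes of this list 10 rose and 16 fell, 7 and 16 under all 3 scalings. The falls numbered 28 with quantile normalization and 23 with median centring.

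Glycolysis and hypoxia-inducible genes had 35 tested members, of which 26 rose and 3 fell, 17 and 3 under all 3 scalings (median 1.04). Slc2a1, the glucose transporter GLUT1, went from 3.80 and 3.81 to 7.88 and 7.89 (16.9-fold, adjusted p = 1.90e-06), with almost equal replicates. Hk2, hexokinase 2, went from 2.71 and 2.89 to 5.20 and 6.27 (7.62-fold), with its LPS replicates about a unit apart. Hif1a (3.18) and Pfkfb3 (5.53), the activator of glycolytic flux, rose, and Slc2a3 (-2.70) and Pfkfb4 (-2.59) fell.

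In the citric acid cycle 3 of 23 genes rose and 8 fell, 1 and 8 under all 3 scalings. Quantile normalization called 1 higher and 19 lower, and median centring 1 and 12. Idh1, the cytosolic isocitrate dehydrogenase, went from 2.27 and 2.42 to 0.03 and 0.19 (4.70-fold lower), and Idh2 (-1.31) and Pcx (-1.38) fell. Sdha, of succinate dehydrogenase, went from 5.21 and 4.97 to 5.15 and 5.64; its groups overlapped and it was not called (adjusted p = 0.249), while quantile normalization gave a called change of -0.47. For respiratory chain subunits and ribosomal protein genes the direction turned with the scaling. Of 39 respiratory genes, 14 rose and 1 fell with the 75th percentile, 2 and 20 with quantile normalization and 3 and 8 with median centring. Of 35 ribosomal genes the counts were 15 and 1, 0 and 19, and 0 and 3.

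Stress defence genes were mixed, 23 of 45 rising (51.1%, beside 35.7% of all genes) and 12 falling (26.7%, beside 21.8%). Under all 3 scalings these were 15 and 12. Slc7a11, the cystine importer, went from -5.05 and -5.14 to 2.06 and 1.87 (133-fold). Hmox1, heme oxygenase, went from 5.23 and 5.27 to 7.31 and 7.36 (4.24-fold). Mt2, a metallothionein, went from 5.50 and 5.24 to 9.17 and 9.03 (13.3-fold). None of these 3 overlapped between groups. Sod2 (3.02), Txnrd1 (2.38) and the zinc importer Slc39a14 (4.0) rose, while Cat (-1.50), Gpx1 (-1.01), Gclc (-0.95) and Gclm (-0.92), the last 2 for glutathione synthesis, fell.

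Lysosomal genes had 14 rises (30.4%, beside 35.7% of all genes) and 15 falls (32.6%, beside 21.8%) of 46. Under all 3 scalings these were 3 and 15, while the falls alone numbered 32 with quantile normalization and 26 with median centring. Among them were Galc (-4.09) and Lipa (-1.84) lower and Ctsc (2.46) higher. ATF4 targets and chaperones had 13 rises (40.6%) and 9 falls (28.1%) of 32, near the shares of all genes, and 10 and 9 under all 3 scalings. Among them were the serine synthesis enzyme Psat1 (3.76) and Hspa1a (3.75) higher, and Slc1a5 (-1.95) and Shmt2 (-1.78) lower. In the circadian clock, Nfil3 rose (4.94 ± 0.15), while its opponents Dbp (-3.60 ± 0.17) and Tef (-3.80 ± 0.27), and Nr1d1 (-1.87 ± 0.16), fell.

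A ranking of all called genes by size of change gave a different view. The 15 largest rises were, in order of the measured change or its bound, Il6, Il19, Edn1, Il1a, Il12b, Ptgs2, Slamf1, Shisa3, Ccl12, Fst, Hdc, Gfi1, Serpinb2, Ptx3 and Serpina3g. Il19, a relative of IL-10, and Edn1, the vasoconstrictor endothelin, came up from below background at least 17232-fold and at least 9609-fold on the probes used. The other probe of Il19 rose by 11.85. With normexp background correction (offset 50) the log2 rises were smaller, 10.95 for Il19 and 10.21 for Edn1. Those of Il6 and Il12b were also smaller with it, at 12.47 and 10.96. Fst, which binds activin, rose at least 1884-fold and Ptx3, a soluble pattern recognition protein, at least 1530-fold. With normexp their log2 rises were 7.91 and 7.63. Inhba, the activin subunit, was itself higher by 7.97 ± 0.17. Gfi1, a transcriptional repressor, went from -5.77 and -5.92 to 4.75 and 5.06 (1724-fold).

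The 15 largest falls were of other kinds: Arhgap19, Sesn1, Rasgrp3, Susd3, Zfp395, Zfp704, Engase, Acot1, Ypel3, Tbc1d16, Angptl2, Klc4, Frat1, Peli2 and St6gal1. Sesn1, a stress-inducible inhibitor of mTORC1, went from 5.28 and 5.11 to -1.76 and -1.94, a change of -7.04 ± 0.14 (132-fold lower, adjusted p = 1.08e-06). Rasgrp3, an activator of Ras, went from 3.42 and 2.91 to -3.99 and -3.18, and Susd3 from 2.38 and 2.18 to -4.26 and -4.14. Only falls above background on both untreated arrays and without overlap were ranked, so these traits of the 3 genes follow from the ranking. Arhgap19 was at least 136-fold lower on its brightest probe, and its other probe changed by -4.81. Zfp395 was at least 82.7-fold lower on its brightest probe, but another of its 4 probes changed by 0.28 without being called, and this probe stands for the gene when only probes above background on all 8 arrays are kept. St6gal1, a sialyltransferase, changed by -5.49 ± 0.15, and its other probe by -0.26. All 30 ranked genes kept their call in each of 8 fits that left out 1 array and under all 3 scalings. They were picked as the largest called changes on these same arrays, so the kept calls are not independent support. Leaving out a KO array does not alter the WT change itself.

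**Figure D4:**
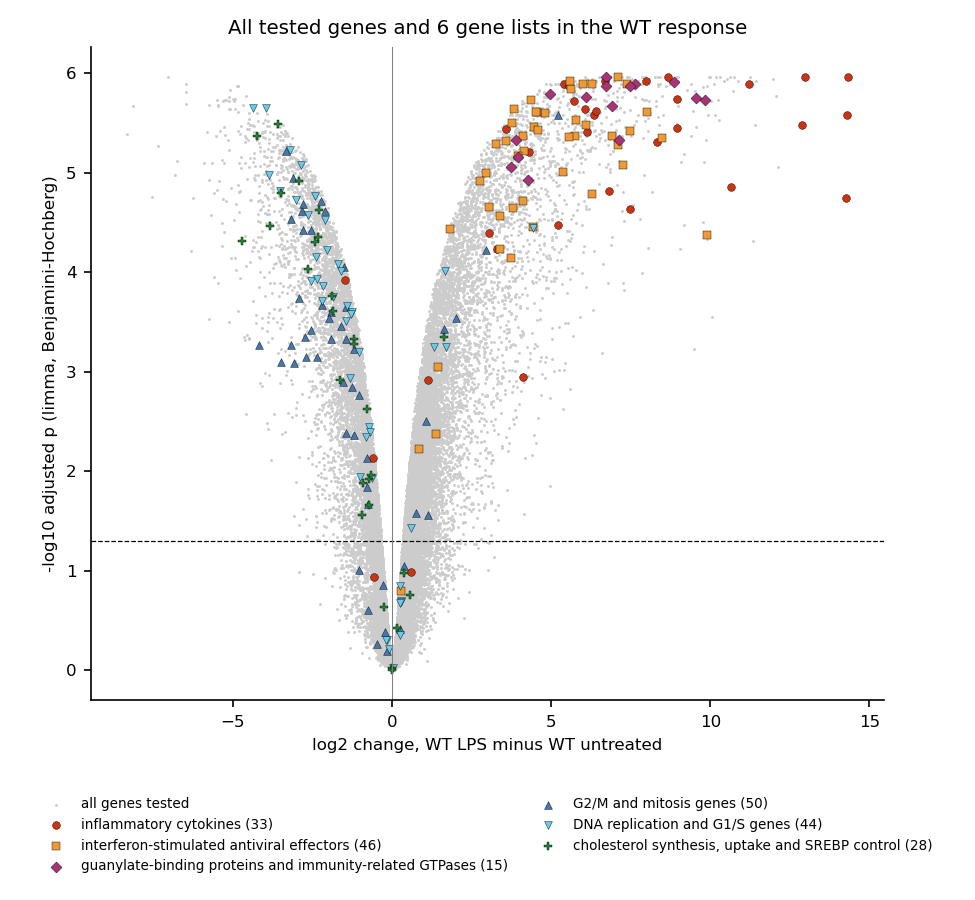
Log2 change (WT LPS minus WT untreated, 75th percentile scaling) against -log10 of limma's adjusted p for 27950 genes in grey and 6 gene lists in colour; the dashed line is the threshold of 0.05. Cytokines, antiviral effectors and GTPases fill the right arm, and replication, mitosis and cholesterol genes the left, with a few of the latter to the right.

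Markers of other cell types moved too and are given beside these results. The summed level of the 11 tested neutrophil markers, in units of each array's 75th percentile signal, was 51.3 and 53.9 untreated and 111 and 119 with LPS, with S100a8 (3.08) and Ly6g (2.69) higher and Mpo, Elane and Ltf not called (Elane was called lower under the other 2 scalings and Ltf with median centring). Dendritic cell markers summed to 138 and 117 untreated and 187 and 202 with LPS, 6 of 9 rising, among them Ccr7 and Zbtb46 (5.13), while Flt3 was not called and Xcr1 was not tested. Fibroblast markers summed to 1.35 and 1.45 untreated and 5.08 and 4.55 with LPS, with Pdgfrb higher (6.23) and Col1a2 lower (-0.70). B cell markers summed to 1.46 and 1.54 against 0.491 and 0.398, although 2 of 6 rose, 1 fell and the median change was 0.58. A sum is led by the brightest probes of its list. The 12 macrophage markers summed to 1447 and 1296 untreated and 2075 and 2010 with LPS. On this scaling 6 rose and 3 fell (median 0.56). The counts were 4 and 6 with quantile normalization (median -0.26) and 5 and 4 with median centring (median 0.18). Markers of T and NK cells summed to 20.0 and 23.9 against 38.0 and 41.0, with 2 of 8 rising and 0 falling. Those of mast cells, basophils and eosinophils summed to 0.703 and 0.611 against 1.92 and 2.54. Those of red cells and megakaryocytes stayed between 0.101 and 0.157. The part of other cell types in the response was not tested.

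The same contrast in KO macrophages, which shares no array with that of WT, was set beside it. Cul3 itself, on the probe used here, stood at 1.77 and 1.79 in untreated WT and 2.40 and 2.42 with LPS, and at 1.38 and 1.28 and 1.90 and 1.77 in KO cells; the part of the gene removed was not given, and how far the protein was lost cannot be read from this probe. In WT cells it rose by 0.63 ± 0.12 (adjusted p = 0.00505), which was 0.46 with quantile normalization (called), 0.25 with median centring (not called) and -0.21 in the authors' deposited log2 values. KO cells had 13135 called genes (47.0%), 7068 higher (25.3%) and 6067 lower (21.7%). Of the 9987 genes higher in WT that were tested in both, 61.8% were higher in KO, and of the 7067 higher in KO, 87.3% were higher in WT. For falls the shares were 80.3% of 6091 and 80.7% of 6065. Genes called in opposite directions numbered 112.

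The 2 responses differed for 1270 of 27936 genes (4.55%) by the interaction contrast, 923 with a more positive change in WT (3.3%) and 347 with a more negative one (1.24%). Leaving out 1 array gave between 4 and 1908 such genes: 4 and 8 without WT untreated replicate 1 and 2, 1908 and 317 without WT LPS replicate 1 and 2, 72 and 5 without KO untreated replicate 1 and 2, and 99 and 31 without KO LPS replicate 1 and 2. With the slide column as a random block, 170 such genes were called. Among the 67 genes followed here, 16 had a called difference, of which 8 were still called with median centring and 6 with the slide column as a random block. Cxcl9 rose by 10.18 in WT and 7.36 in KO cells, a difference of 2.82 ± 0.19 (adjusted p = 0.00873). Cd40 rose by 10.32 and 7.61, a difference of 2.71 ± 0.23 (adjusted p = 0.0102), and Il10 by 6.69 and 4.05, a difference of 2.64 ± 0.21 (adjusted p = 0.00969). Cd86 rose by 5.98 and 3.49, a difference of 2.48 ± 0.20. Each of these 4 calls held in 4 or 5 of 8 fits that left out 1 array. Cxcl1 was not called different (7.20 and 8.04, difference -0.84 ± 0.23, adjusted p = 0.0992), nor was Tnf (4.31 and 3.93, difference 0.38 ± 0.25, adjusted p = 0.422).

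**Figure D5:**
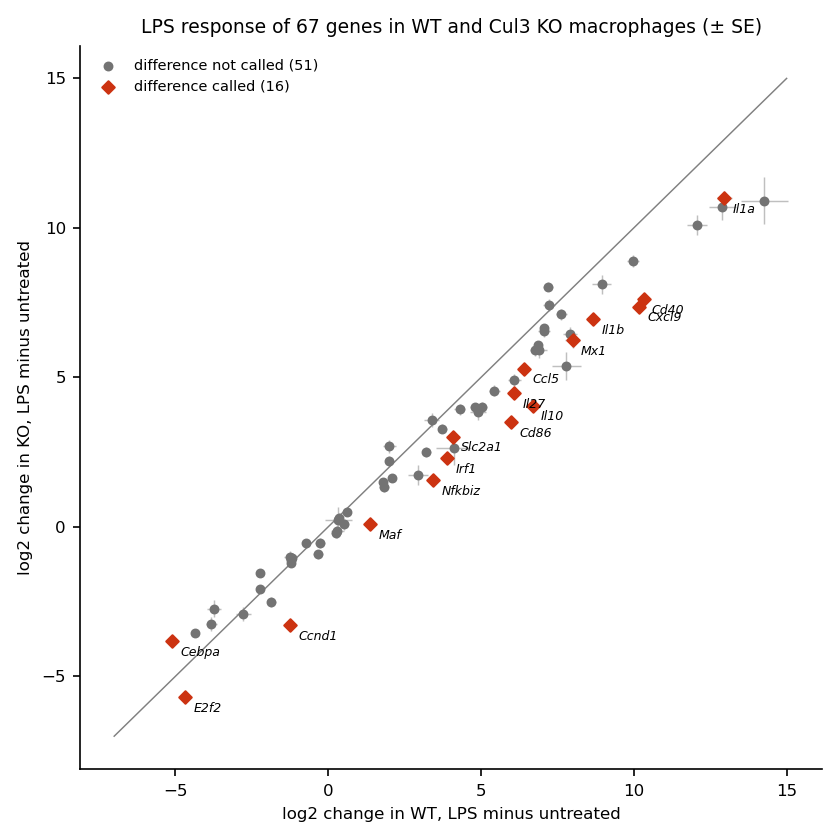
Log2 change with LPS in KO against WT macrophages for 67 genes (75th percentile scaling, bars are SE, n = 2 arrays per group); the line marks equal change and diamonds are the 16 genes whose difference was called. The 15 genes with a called, more positive change in WT lie below the line and Cebpa above it.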

How the data were processed

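RNA of 8 mouse BMM samples was labelled with Cy3 from 0.5 micrograms per sample, per the labels' protocols, and hybridised to 8 1-colour Agilent arrays on 1 slide. Groups and replicate numbers came from the sample titles. Per the submitters' processing notes, the authors read spot intensity with Feature Extraction 10.7.3.1 (Agilent). As the file headers record, the processed signal intensity was background-corrected and detrended within each array, with no scaling between arrays, and probe positions were on mm9. Of 55681 probes, 26670 had log2 values in the deposited table; it matched the log2 background-subtracted signal of the same arrays (median difference at most 0.00219, correlation 0.987 or more), so it carried no scaling between arrays, and how its probes were selected is unknown. Its array medians were 10.94 and 11.10 (WT untreated), 10.67 and 10.73 (WT LPS), 11.11 and 11.03 (KO untreated) and 10.85 and 10.71 (KO LPS).

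From the intensity files, log2 processed signals of non-control spots, leaving out outlier flags, were reduced by each array's 75th percentile over non-control spots and averaged per probe. No non-control spot was saturated. A probe was kept if both arrays of some group had it well above background (39870 probes), and each gene was given by its brightest kept probe (mean of the 8 arrays). Of the probes, 26162 were named through accessions of the RefSeq gene table, 3130 through symbols and 911 through synonyms, while 25478 bear the original name. One limma (3.58.1, R 4.3.3) model, with group means as coefficients, covered all 8 arrays (4 residual and 2.41 prior degrees of freedom after eBayes). P-values were adjusted by Benjamini-Hochberg over every gene tested and called under 0.05. A missing value, as in 474 genes with an array lost to outlier flags, was left missing in the fit. The fit was tested on simulated data. Where neither array of a group was well above background, the fold is a lower bound: the mean of the bright group against a floor averaged over the dim arrays, which was the probe's own signal or, if higher, the dimmest signal of any probe well above background on that array. Of 215 called genes with several probes among those listed or ranked, 5 had a probe called the other way.

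The members, the gene lists and the 67 genes given by array were chosen with earlier results of these data known. Named were these genes, the 15 largest rises and falls among called, non-overlapping genes (passing over clone names, RIKEN, Gm and similar names), and members of the lists. Some items of these lists are not reported here. Promoters came from RefSeq (GRCm38.p6) and were found for 48 of the 67 genes; motifs were searched on both strands of 250 bases. Alternatives were other scalings (quantile, median), normexp (offset 50), the deposited log2 values, other filters, probe summaries, array sets, moderation and thresholds, the replicate number as a block, the slide column as a random block (duplicateCorrelation, added after seeing the data), and leaving out each array.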

Additional observations from a re-analysis of the deposited data

Results flagged for a closer look

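For 16 of the 67 genes given by array, the response to LPS differed between WT and KO macrophages by a test of the difference itself (limma interaction contrast, adjusted p under 0.05, 4.55% of all genes). Differences are log2, WT minus KO. Among cytokines and chemokines they were 1.97 for Il1a, 1.74 for Il1b, 1.62 for Il27, 2.64 for Il10, 1.10 for Ccl5 and 2.82 for Cxcl9. Among interferon-stimulated genes and regulators they were 1.76 for Mx1, 1.59 for Irf1, 1.86 for Nfkbiz, 1.30 for Maf and -1.30 for Cebpa. For the costimulatory genes they were 2.71 (Cd40) and 2.48 (Cd86), for the cell cycle genes 1.02 (E2f2) and 2.05 (Ccnd1), and for the glucose transporter gene Slc2a1 1.07. Of the 15 genes with a positive difference, Ccnd1 and E2f2 fell less in WT than in KO and the other 13 had a higher rise in WT, while Cebpa fell more in WT. The median difference of all genes was 0.17 on this scaling and 0.0022 with quantile normalization, under which the differences of Il1a, Ccl5, Mx1, Maf and Slc2a1 were no longer called. With median centring these 5 and Irf1, Nfkbiz and E2f2 were no longer called. With the slide column as a random block, Il1b, Il10, Cxcl9, Cd40, Cd86 and Ccnd1 were still called and the other 10 were not. Leaving out 1 array kept each of the 16 calls in between 0 and 5 of 8 fits, and none of the 16 held in all 8. WT and KO arrays lay in separate rows of the slide, and the row cannot be told apart from the genotype.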

How the results depend on the processing

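The number of genes higher in WT (9989) moved to 6203 with arrays centred on the median, 16313 with normexp, 2429 in the authors' deposited log2 values (which hold fewer genes) and 6162 with a log2 change above 1, where the genes lower (6091) numbered 3982. Leaving out 1 array gave 7265 to 9670 genes higher and 5072 to 5999 lower. The replicate block gave 9348 higher and 5812 lower in WT. Deviations of samples with the same replicate number showed no positive correlation of size (-0.187 to 0.027). Whether such samples share a mouse or culture cannot be read from this. The median change of all genes in WT (0.31) was -0.064 with quantile normalization, -0.073 with median centring, -0.59 in the deposited values, 0.52 with normexp and 0.47 with no filter. In KO it was 0.13, and -0.060, -0.13, -0.47 and 0.31 in the first 4 of these settings; called genes there numbered 8045 with a log2 change above 1. For the difference in response, the median (0.17) was 0.0022 with quantile normalization, 0.057 with median centring and -0.11 in the deposited values. Its 1270 called genes became 638 with median centring, 2445 with normexp, 590 in the deposited values, 184 with no filter, 134 with the replicate block (4 of the 16 given above: Il10, Cxcl9, Cd40 and Cd86), 170 with the slide column as a random block, 2205 with trended and robust moderation, 32 at an adjusted p under 0.01, and 4 to 1908 leaving out 1 array.

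Of 331 tested genes named here, 318 to 331 kept their direction and call under each setting run on all 331. With a call on at least 1 side, signs turned for Adgre1 (-0.034 with quantile normalization, -0.089 in the deposited values), Csf1r (-0.49, quantile), Ifi27 (-0.57, quantile, and -0.43, deposited), Mcm6 (-0.78 and -0.75), Sdha (-0.47 and -0.48), Klrb1c (0.60 with normexp), Zfp395 (0.28 with the filter on all 8 arrays) and, in the deposited values, Cul3 (-0.21), H2-Aa (-0.34), Irf3 (-0.61) and Mrc1 (-0.61). The cause was not tested. Turns between uncalled values, as for Ciita, are not listed. The slide columns are nested within LPS and were fitted as a random block only, an alternative chosen after seeing the data. Signal over background limits genes near the floor to lower bounds.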

Other observations

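Cytokines and receptors outside the account above also moved. Il33, an alarmin, came up from below background at least 754-fold, and Lta did likewise (75.9-fold at least). Tnfsf15 (8.96), Tnfsf10, which encodes TRAIL (8.33), and Il18 (5.40) rose. The purinergic receptors P2ry13 (3.92) and P2ry14 (3.44) rose. The heparin-binding growth factor Hbegf rose by 7.18 ± 0.21 and the endothelial protein C receptor Procr by 6.30 ± 0.16.

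In the Cullin 3 and neddylation list, 7 of 11 genes rose and 2 fell, 3 and 2 under all 3 scalings. The NEDD8-conjugating enzymes Ube2f (2.01 ± 0.14) and Ube2m (1.27 ± 0.19) and the Cullin 3 adaptor Keap1 (1.75 ± 0.16) rose, and the adaptor Kctd17 fell (-1.98 ± 0.20). Of 4029 tested probes for long intergenic RNAs that carry only a genome position as a name, 1560 were called higher (38.7%) and 380 lower (9.43%) with the 75th percentile scaling, beside 35.7% and 21.8% of all genes.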
